A study of Danio rerio with 12 samples.

Results

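The genes described here are 10 names used to mark microglia and other macrophages in the zebrafish brain: apoeb, mpeg1.1, csf1ra, csf1rb, p2ry12, slc7a7, ctsba, c1qa, c1qb and lcp1. Rows of the count table were matched by symbol, ignoring case, and a symbol given without its paralogue letter counted with all its gene identifiers. This gave 12 of the 32105 gene identifiers in the table, of which 11 were abundant enough to be tested. P2RY12, SLC7A7 and LCP1 are the capital forms under which the name table lists p2ry12, slc7a7 and lcp1. CTSB was taken as ctsba because the symbol matched once the paralogue letter was dropped. In the same way 3 identifiers share the symbol MPEG1, which does not say which of them is mpeg1.1.

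The libraries were made from brain RNA of male zebrafish aged 6 months and sequenced in bulk. The 3 strains were wild type, actb1::miR-29sponge and kif5a::miR-29sponge, with 4 libraries each. The sponge strains carry a transgene whose transcript holds binding sites for the microRNA miR-29 and so draws it away from its targets; actb1 is a broadly expressed actin gene and kif5a a kinesin gene used in neurons, and both constructs are named for them. The labels name no treatment, and they state neither which cells express the constructs nor whether each library is a separate fish; the p-values therefore reflect the spread between libraries, which may be technical. Library totals ran from 20884576 to 33573243 counts. Genes of neurons were abundant in every library, whose 22 identifiers summed to 7165 to 10710 CPM (read counts scaled to a common library size and composition). The library actb1 sponge 3 stood apart from the other 11: mitochondrial protein genes took 2.24% of its counts against 9.37% to 14.0%.

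Microglia are the resident macrophages of the brain and arise from blood-forming lineages, not from the neural tube. They clear dying cells and debris through phagocytosis and lysosomal digestion, and they make the first component of the classical complement pathway. Signalling through the CSF1 receptor maintains them, and in zebrafish they are commonly recognised by mpeg1 and apoeb. In bulk tissue, fewer cells of a type and less RNA per cell cannot be told apart.

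The amount of transcript differed widely between the genes. Divided by gene length, apoeb was the most abundant in wild type, at 181 ± 21.7 CPM per kilobase (SD, n = 4). CTSB followed at 40.0 ± 5.73 and MPEG1 (ENSDARG00000055290) at 19.3 ± 14.6 CPM per kilobase. The wild-type ranges of apoeb and CTSB, 163 to 211 and 36.3 to 48.5 CPM per kilobase, did not overlap, whereas MPEG1 reached 38.3 and so overlapped CTSB. The genes c1qb (10.8 CPM per kilobase), c1qa (8.95), csf1ra (6.77) and LCP1 (4.64) formed the middle of the order, with overlapping ranges. At the low end csf1rb (2.32), SLC7A7 (2.201), P2RY12 (1.08) and the other tested MPEG1 (ENSDARG00000043093, 0.949 CPM per kilobase) also overlapped one another. The remaining MPEG1 (ENSDARG00000078569) had 1 count over all 12 libraries and was not tested.

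**Figure D1:**
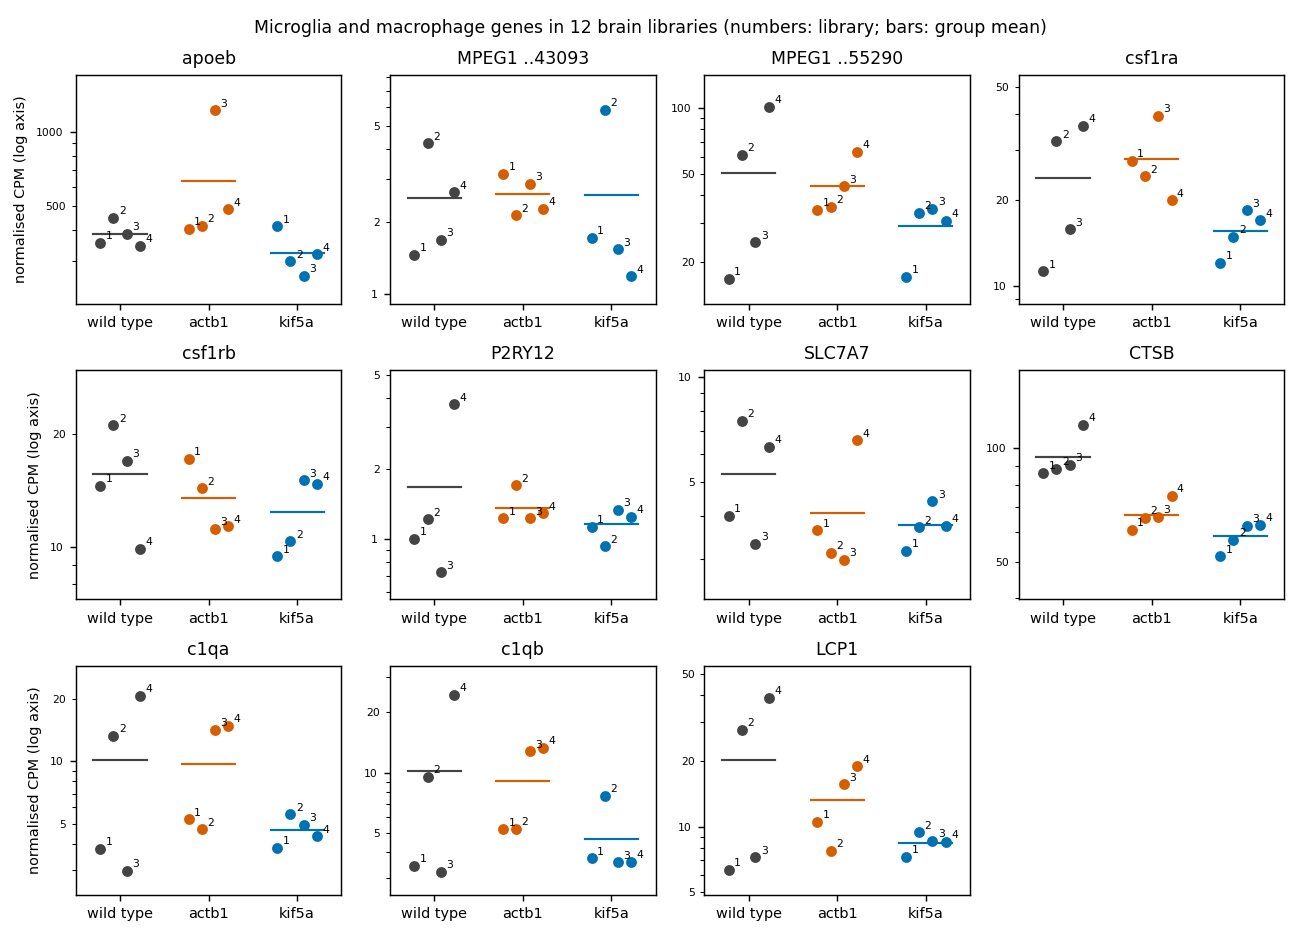
Normalised CPM on a log axis for the 11 tested genes, 1 panel each, in wild type, actb1 sponge and kif5a sponge libraries; points are libraries numbered within their group, bars are group means, and the MPEG1 panels carry the last digits of the identifier. Wild type 2 and 4 sit above wild type 1 and 3 in 8 panels, and the kif5a sponge points of LCP1, c1qa and csf1ra lie close together near the low wild-type libraries.

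Among the 11 genes, CTSB was the only one whose difference from wild type passed edgeR's test, and it did so in the kif5a line, where 0.534% of all tested genes were called. CTSB encodes cathepsin B, a cysteine protease of the lysosome that macrophages use to digest what they take up. Its normalised CPM was 86.2, 88.2, 90.5 and 115 in wild type 1 to 4, 60.8, 65.3, 65.8 and 74.9 in actb1 sponge libraries 1 to 4, and 51.7, 57.1, 62.4 and 62.6 in kif5a sponge libraries 1 to 4. All 8 sponge libraries lay below the lowest wild-type library, and the 2 sponge groups overlapped each other. Such a separation, with the sponge line lower, was found for 5.25% of all tested genes in the actb1 line and for 4.99% in the kif5a line. In the kif5a line CTSB fell by 0.70 ± 0.11 on the log2 scale (edgeR's quasi-likelihood test, Benjamini-Hochberg adjusted p = 0.0138). In the actb1 line the log2 difference was -0.51 ± 0.11 and missed the threshold of 0.05 (edgeR adjusted p = 0.0575), and the sponge lines differed from each other by -0.19 ± 0.11 (edgeR adjusted p = 0.415). The call in the kif5a line was lost when kif5a sponge 1, 2 or 3 was left out, with edgeR adjusted p of 0.0811, 0.0588 and 0.0550. The log2 difference there ran from -0.74 (without wild type 1) to -0.58 (without wild type 4) when 1 library was left out. In the actb1 line it ran from -0.57 (without actb1 sponge 4) to -0.37 (without wild type 4). The paralogue ctsbb, named after its values were seen, stood at 0.153 to 1.22 CPM over the 12 libraries.

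The receptors of the set were csf1ra, csf1rb and P2RY12. Both csf1r genes encode receptors for the growth factors CSF1 and IL34; csf1ra also acts in yellow pigment cells of zebrafish skin. The CPM of csf1ra was 11.2, 32.1, 15.8 and 36.4 in wild type 1 to 4, 27.4, 24.2, 39.4 and 19.9 in actb1 sponge libraries 1 to 4, and 12.0, 14.8, 18.4 and 17.0 in kif5a sponge libraries 1 to 4. The kif5a libraries were all within the wild-type range and all below the actb1 libraries. The log2 difference from wild type was -0.62 ± 0.33 in the kif5a line and 0.22 ± 0.33 in the actb1 line (edgeR adjusted p = 0.531 and 0.764). With 1 library left out, these ran from -0.85 (without wild type 1) to -0.33 (without wild type 4), and from 0.017 to 0.53 (without the same libraries). Between the sponge lines it was -0.84 ± 0.33 for kif5a against actb1 (edgeR adjusted p = 0.244, unadjusted p = 0.0271), although the groups did not overlap, as was so with the kif5a line lower for 4.68% of all tested genes.

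The paralogue csf1rb did not follow csf1ra. Its CPM was 14.6, 21.1, 16.9 and 9.90 in wild type 1 to 4, 17.2, 14.3, 11.2 and 11.4 in actb1 sponge libraries 1 to 4, and 9.47, 10.4, 15.1 and 14.7 in kif5a sponge libraries 1 to 4. Wild type 4, highest of its group in csf1ra, was lowest in csf1rb, and the 3 groups overlapped. The ratio of csf1ra to csf1rb CPM was accordingly 0.770, 1.52, 0.930 and 3.68 in wild type 1 to 4. In the kif5a line that ratio was nearly level at 1.15 to 1.43, and in the actb1 line it was 1.60 to 1.75 in 3 libraries and 3.52 in actb1 sponge 3. The log2 difference of csf1rb was -0.33 for the kif5a line and -0.21 for the actb1 line (edgeR adjusted p = 0.655 and 0.674), and -0.15 and -0.03 without wild type 2.

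P2RY12, the ADP receptor through which mammalian microglia sense injury, was scarce. It stood at 1.01, 1.22, 0.724 and 3.74 CPM in wild type 1 to 4, 1.23, 1.70, 1.23 and 1.29 CPM in actb1 sponge libraries 1 to 4, and 1.13, 0.934, 1.34 and 1.25 CPM in kif5a sponge libraries 1 to 4. Wild type 4 was above every other library, and the other 11 spanned 0.724 to 1.70 CPM. With 79 counts in wild type 4 and 27 in wild type 1, the 95% exact Poisson intervals were 2.96 to 4.66 and 0.663 to 1.46 CPM, which cover counting error only. The sponge lines differed from wild type by -0.28 ± 0.43 (actb1) and -0.51 ± 0.44 (kif5a) on the log2 scale, within the spread of the libraries (edgeR adjusted p = 0.769 and 0.737), and by 0.50 and 0.25 without wild type 4.

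The 2 neighbouring complement genes c1qa and c1qb varied most within wild type. They encode chains of C1q, the recognition part of the first complement component, which in the mouse brain comes mainly from microglia. The CPM of c1qa was 3.80, 13.2, 2.97 and 20.6 in wild type 1 to 4, 5.26, 4.71, 14.2 and 14.8 in actb1 sponge libraries 1 to 4, and 3.85, 5.57, 4.95 and 4.36 in kif5a sponge libraries 1 to 4. For c1qb the CPM was 3.43, 9.52, 3.20 and 24.4 in wild type 1 to 4, 5.22, 5.25, 12.8 and 13.3 in actb1 sponge libraries 1 to 4, and 3.75, 7.68, 3.57 and 3.58 in kif5a sponge libraries 1 to 4. Each group of 4 in wild type and in the actb1 line split into a low and a high pair, while all kif5a libraries lay inside the wild-type range. Although c1qa differed by -1.11 ± 0.57 and c1qb by -1.12 ± 0.60 on the log2 scale in the kif5a line, neither passed the test (edgeR adjusted p = 0.496 and 0.528). In the actb1 line the differences were -0.05 ± 0.56 and -0.14 ± 0.59. Without wild type 4 the differences of c1qa and c1qb were -0.51 and -0.21 in the kif5a line, and 0.58 and 0.80 for the actb1 line. The ratio of c1qa to c1qb stayed between 0.725 and 1.39 in all 12 libraries. The adjacent gene c1qc, also chosen after its values were seen, stood at 4.99, 13.4, 3.36 and 29.6 CPM in wild type 1 to 4 and had the same 2 high libraries.

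LCP1 and the abundant MPEG1 followed the same order of wild-type libraries. LCP1 encodes L-plastin, an actin-bundling protein of leukocytes, and stood at 6.34, 27.8, 7.24 and 39.0 CPM in wild type 1 to 4, 10.6, 7.72, 15.6 and 18.9 CPM in actb1 sponge libraries 1 to 4, and 7.27, 9.41, 8.60 and 8.51 CPM in kif5a sponge libraries 1 to 4. MPEG1 (ENSDARG00000055290), for the pore-forming protein perforin-2 of macrophages, stood at 16.8, 61.1, 24.5 and 101 CPM in wild type 1 to 4, 34.4, 35.4, 44.0 and 62.9 CPM in actb1 sponge libraries 1 to 4, and 17.1, 33.5, 34.7 and 30.7 CPM in kif5a sponge libraries 1 to 4. In both genes wild type 4 was the highest of the 12 libraries and wild type 1 the lowest, so every sponge library fell inside the wild-type range. LCP1 had the most negative log2 difference of the set in the kif5a line, -1.25 ± 0.50 (edgeR adjusted p = 0.373, unadjusted p = 0.0287), and MPEG1 differed there by -0.81 ± 0.46 (edgeR adjusted p = 0.560). In the actb1 line the values were -0.60 ± 0.50 for LCP1 and -0.20 ± 0.46 for MPEG1 (edgeR adjusted p = 0.556 and 0.854). Without wild type 4, LCP1 differed by -0.70 and MPEG1 by -0.23 in the kif5a line, and by -0.029 and 0.41 in the actb1 line.

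The low-abundance MPEG1 (ENSDARG00000043093) had another top library. Its CPM was 1.45, 4.23, 1.68 and 2.65 in wild type 1 to 4, 3.16, 2.12, 2.88 and 2.26 in actb1 sponge libraries 1 to 4, and 1.71, 5.85, 1.53 and 1.18 in kif5a sponge libraries 1 to 4. The highest library, kif5a sponge 2, was above every wild-type library, and the other 3 of its group lay between 1.18 and 1.71 CPM. The log2 differences from wild type were 0.06 ± 0.49 (actb1 line) and 0.03 ± 0.49 (kif5a line) (edgeR adjusted p = 0.963 and 0.991). With wild type 2 left out they were 0.44 and 0.42, and with kif5a sponge 2 left out the kif5a line stood at -0.76. How reads shared between paralogues were counted is not stated in these sources, so the split of reads among the MPEG1 identifiers is uncertain.

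SLC7A7 and apoeb complete the set. SLC7A7 is an exchanger of cationic and neutral amino acids that zebrafish need to form microglia. Its CPM was 3.99, 7.49, 3.32 and 6.30 in wild type 1 to 4, 3.63, 3.13, 2.99 and 6.58 in actb1 sponge libraries 1 to 4, and 3.17, 3.70, 4.40 and 3.74 in kif5a sponge libraries 1 to 4. The groups overlapped, with the sponge lines at log2 differences of -0.37 ± 0.30 (actb1) and -0.49 ± 0.30 (kif5a) (edgeR adjusted p = 0.550 and 0.601). Without wild type 2 they were -0.15 and -0.27.

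The lipid carrier gene apoeb, which zebrafish microglia express strongly, was the most even gene within wild type and the one with the largest positive difference. Its CPM was 355, 447, 387 and 346 in wild type 1 to 4, 405, 416, 1224 and 485 in actb1 sponge libraries 1 to 4, and 414, 299, 261 and 318 in kif5a sponge libraries 1 to 4. The high value belonged to actb1 sponge 3, the library with the low mitochondrial share; the part of that library's makeup in the result was not tested. The log2 difference in the actb1 line was 0.72 ± 0.31 (edgeR adjusted p = 0.271, unadjusted p = 0.0385) and was 0.21 without that library. Between the sponge lines it was -0.97 ± 0.31 for kif5a against actb1 (edgeR adjusted p = 0.159, unadjusted p = 0.00891) and -0.45 without that library. In the kif5a line the difference from wild type was -0.25 ± 0.31 (edgeR adjusted p = 0.846), and -0.38 without kif5a sponge 1 and -0.15 without kif5a sponge 3.

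**Figure D2:**
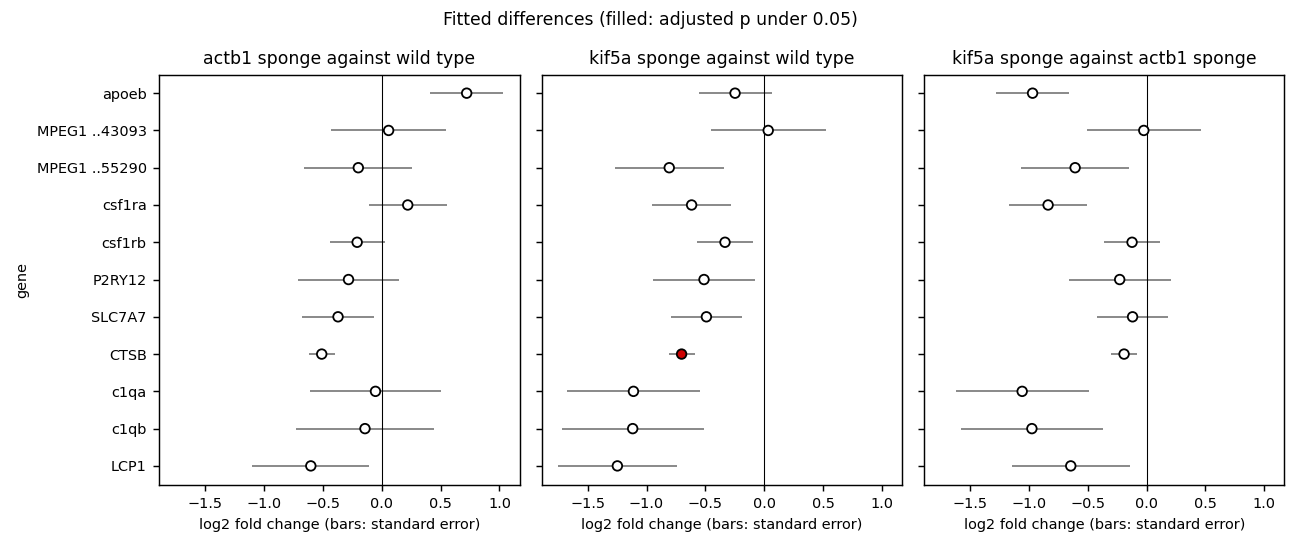
Fitted log2 fold changes of the 11 tested genes with their standard errors, for the actb1 sponge line against wild type, the kif5a sponge line against wild type and the kif5a against the actb1 sponge line; a filled point marks an adjusted p under 0.05. CTSB in the kif5a line, at -0.70, is the only filled point, and 10 of the 11 points in that panel lie below 0.

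Counted over the set, 10 of the 11 tested genes had a negative log2 difference in the kif5a line, with a median of -0.62, whereas 51.1% of all tested genes were negative, with a median of -0.01. In that comparison 1 gene was called lower, CTSB, against 0.422% of all tested genes called lower. CTSB was also the 1 gene whose groups did not overlap. CTSB and LCP1 had negative differences with unadjusted p under 0.05, as did 6.78% of all tested genes. In the actb1 line 8 of 11 were negative, with a median of -0.20, against 53.9% of all genes. No gene of the set was called there by edgeR, where 0.738% of all genes were called. At an unadjusted p under 0.05 in edgeR's test, apoeb was higher and CTSB lower (7.8% and 8.85% of all tested genes). DESeq2 called CTSB (adjusted p = 0.00205), and over all 19645 tested genes it called 449 higher and 485 lower. CTSB was again the 1 gene without overlap. The comparisons with wild type share the same 4 wild-type libraries. Most genes of the set also shared their high and low libraries, so counts over the set are not of independent genes. The genes were chosen with earlier results of these data known. Between the sponge lines 11 of 11 were lower in the kif5a line, with a median of -0.61, against 49.4% of all genes. EdgeR called 0 of them and 1.18% of all genes. In its test apoeb and csf1ra were lower at an unadjusted p under 0.05 (8.19% of all tested genes). DESeq2 called apoeb (adjusted p = 0.0340), and over all tested genes it called 455 higher and 495 lower. The medians moved with wild type 4: without it, the median was -0.33 in the kif5a line and 0.41 in the actb1 line.

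The spread within wild type was wide for most of the set. The ratio of the highest to the lowest wild-type library was 7.62 for c1qb, 6.91 for c1qa, 6.16 for LCP1, 6.00 for MPEG1 (ENSDARG00000055290) and 5.17 for P2RY12, and it was 3.25 for csf1ra and 2.13 for csf1rb. At the other end CTSB and apoeb spanned 1.34-fold and 1.29-fold. In wild type 5 genes thus spanned 5-fold or more, and in either sponge group 0 did. MPEG1 (ENSDARG00000043093) came close to that bound in the kif5a line, at 4.94-fold. The share of all tested genes with such a span is not given here. LCP1, for example, spanned 6.16-fold in wild type, 2.45-fold in actb1 sponge and 1.29-fold in kif5a sponge libraries.

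On the log2 scale the median SD over the 11 genes was 0.81 in wild type, 0.41 in actb1 sponge and 0.27 in kif5a sponge libraries. Over all tested genes the medians were 0.18, 0.30 and 0.17. A wild-type SD as large as that of c1qb (1.37) was found for 2.82% of tested genes, and one as large as that of csf1ra (0.81) for 7.76%. For CTSB (0.19) and apoeb (0.17) these shares were 46.7% and 53.9%, so these 2 genes varied about as much as the typical gene. In 9 of 11 genes the wild-type SD was above that of both sponge groups, which was so for 24.1% of all tested genes; apoeb and MPEG1 (ENSDARG00000043093) were the exceptions.

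**Figure D3:**
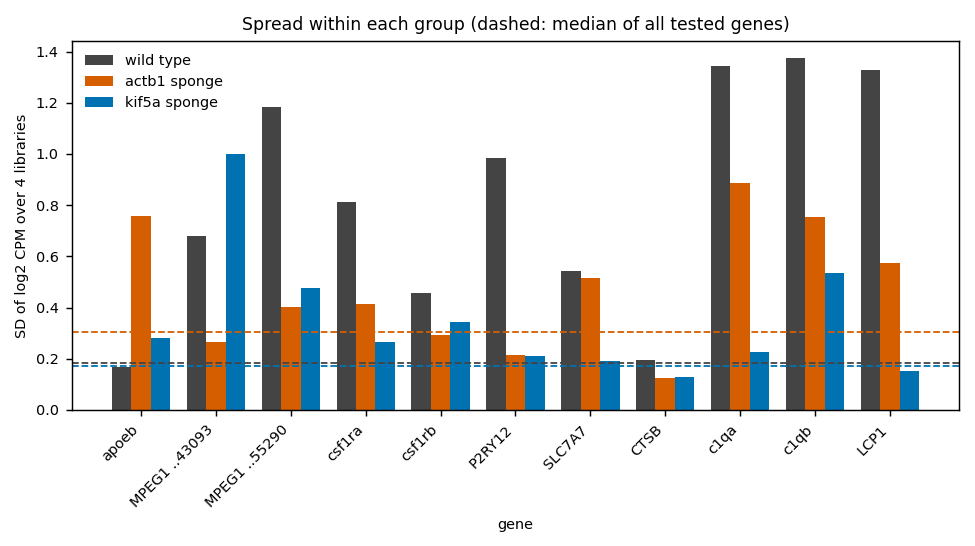
SD of log2 CPM over the 4 libraries of each group, as bars for the 11 tested genes; dashed lines give the median SD of all tested genes in the same colours. The wild-type bars of c1qb, c1qa and LCP1 are the highest of the plot at 1.37, 1.34 and 1.33, while those of apoeb and CTSB are near the median of all genes.

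The same libraries were high or low across the genes. Wild type 2 and 4 were both above wild type 1 and 3 in 8 of 11 genes, an order found in 19.1% of all tested genes, and in 7 the gap exceeded 1.5-fold, as in 5.47% of tested genes. The exceptions were apoeb, csf1rb and CTSB. The split of the wild-type libraries was taken from the values of these same genes, so the counts describe the set and test nothing. Wild type 4 was the highest of all 12 libraries in 6 genes, with a median rank of 1, and wild type 2 in 2, SLC7A7 and csf1rb. Wild type 1 was among the lowest 3 libraries in 7 genes, with a median rank of 11, and so was kif5a sponge 1 in 7. Averaged over the 11 genes, log2 CPM relative to the wild-type mean was -0.64, 0.48, -0.58 and 0.74 in wild type 1 to 4. It was -0.16, -0.27, 0.28 and 0.24 in actb1 sponge libraries 1 to 4, and -0.70, -0.27, -0.43 and -0.51 in kif5a sponge libraries 1 to 4. By this measure kif5a sponge 1 was below wild type 1, and the other 3 kif5a libraries lay between the low and the high wild-type libraries. In 6 genes all 4 kif5a libraries lay inside the wild-type range, and in 7 genes all 4 actb1 libraries did.

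**Figure D4:**
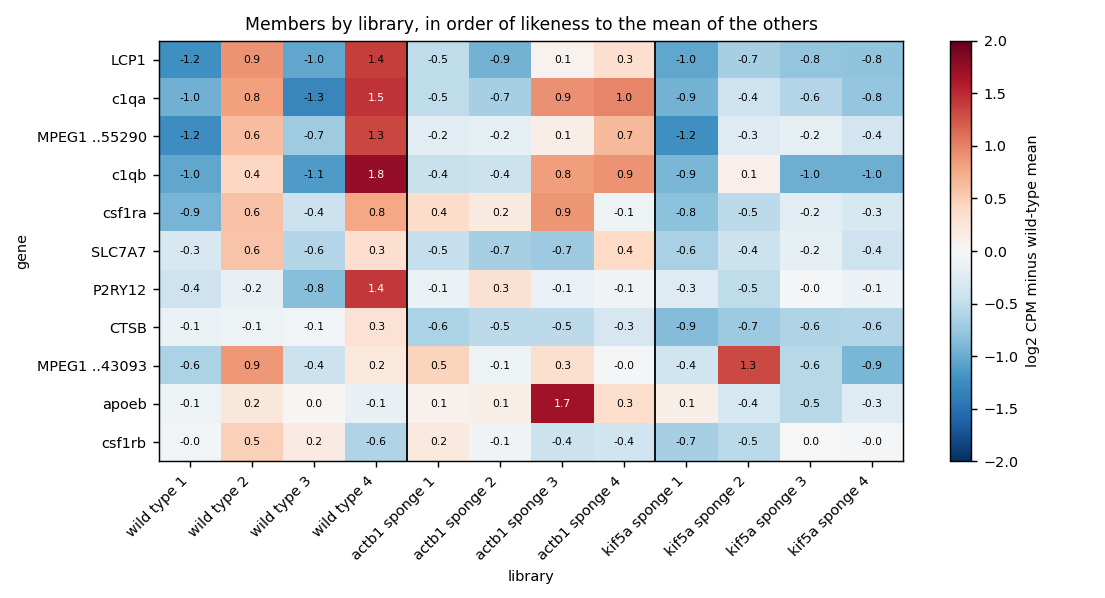
Log2 CPM minus the wild-type mean for each of the 11 tested genes (rows, ordered by likeness to the mean of the others) in each of the 12 libraries (columns), coloured from blue (lower) to red (higher). The columns of wild type 2 and 4 are red and those of wild type 1 and 3 blue in the upper rows, and actb1 sponge 3 is red in the apoeb row.

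The genes c1qa, c1qb, LCP1 and MPEG1 (ENSDARG00000055290) moved as a block over the 12 libraries. Pearson's r of log2 CPM was 0.957 between c1qa and c1qb, 0.946 between c1qa and LCP1 and 0.926 between LCP1 and MPEG1 (ENSDARG00000055290). All 6 pairs among these genes had r of 0.882 or more, and no other of the 55 pairs exceeded 0.85. Against the mean of the other genes, r was 0.958 for LCP1 and 0.815 for csf1ra, but 0.506 for CTSB, 0.227 for apoeb and -0.123 for csf1rb. These values pool the 3 groups. With group means removed, r of CTSB rose from 0.501 to 0.78 with MPEG1 (ENSDARG00000055290) and from 0.416 to 0.696 with P2RY12. It rose also with c1qa, c1qb, csf1ra and LCP1. It fell from 0.192 to -0.357 with csf1rb, and also with apoeb, SLC7A7 and MPEG1 (ENSDARG00000043093). The points share the libraries and their depth, so these values describe these 12 libraries.

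Outside the set, the 8 named genes most like its mean over the 12 libraries, of 14133 searched, were itgb2 (r = 0.981), cd74b (0.981), nlrc5 (0.972), cxcr3.2 (0.969), il34 (0.969), FERMT3 (0.969), ENTPD1 (0.964) and IL16 (0.961). The leukocyte integrin chain itgb2 stood at 21.1, 68.7, 23.1 and 82.5 CPM in wild type 1 to 4 and at 22.2 to 31.9 CPM in the kif5a line. The invariant chain gene cd74b, of antigen presentation by MHC class II, stood at 130, 509, 134 and 610 CPM in wild type 1 to 4 and at 114 to 201 CPM in the kif5a line. Their order of libraries follows from this choice.

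Other genes of microglia and macrophages were also mostly negative. Of 36 tested, 33 had a negative log2 difference in the kif5a line, with a median of -0.82. In the actb1 line 31 did, with a median of -0.36. Of all tested genes, 51.1% and 53.9% were negative in these lines. EdgeR called 0 in either comparison. At an unadjusted p under 0.05, 15 were lower and 0 higher in the kif5a line, and 1 was lower and 1 higher in the actb1 line. Over all tested genes, 6.78% were lower at that level in the kif5a line, and 8.85% lower and 7.8% higher in the actb1 line. Wild type 2 and 4 were above wild type 1 and 3 in 34 of the 36, and the median wild-type SD of log2 CPM was 0.98. The genes thus shared their high and low libraries, so these counts are not of independent genes. No value with a library left out is given here for this list. Their summed level ran from 1071 to 3125 CPM in wild type, 1350 to 2344 CPM in actb1 sponge and 979 to 1430 CPM in kif5a sponge libraries; kif5a sponge 1 was the 1 library below the wild-type range. The gene of smallest p, mertka, a receptor kinase for the uptake of dying cells, stood at 13.6 to 23.4 CPM in wild type and 10.7 to 13.03 CPM in the kif5a line. Its log2 difference was -0.64 ± 0.16 (edgeR adjusted p = 0.148). The cytokine receptor gene csf2rb followed, with 1.79, 21.1, 2.71 and 33.1 CPM in wild type 1 to 4. It stood at 2.295 to 4.152 CPM in the kif5a line. The log2 difference of csf2rb there was -2.09 ± 0.72 (edgeR adjusted p = 0.294). The galectin gene lgals9l1 had 21.0, 118, 20.1 and 244 CPM in wild type 1 to 4. Its kif5a libraries stood at 22.95 to 31.04 CPM, a log2 difference of -1.95 ± 0.68 (edgeR adjusted p = 0.302). In both genes all kif5a libraries lay inside the wild-type range and below wild type 2 and 4.

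The genes that feed the CSF1 receptor or direct the lineage were less even as a group. Of 16 tested, 12 were negative in the kif5a line, with a median of -0.05. In the actb1 line 10 were negative, with a median of -0.14. Of all tested genes, 51.1% and 53.9% were negative in these lines. EdgeR called 0. At an unadjusted p under 0.05, 5 were lower in the kif5a line (6.78% of all tested genes). In the actb1 line 3 were higher and 1 lower (7.8% and 8.85% of all tested genes). The receptor ligand il34 stood at 3.80, 9.76, 5.03 and 9.95 CPM in wild type 1 to 4 and 4.11 to 4.88 CPM in the kif5a line, a log2 difference of -0.68 ± 0.28 (edgeR adjusted p = 0.381). SPI1 (ENSDARG00000000767), the PU.1 factor of the myeloid lineage, stood at 6.78, 24.3, 8.04 and 18.8 CPM in wild type 1 to 4, and its log2 difference in the kif5a line was -0.86 ± 0.37 (edgeR adjusted p = 0.404). Wild type 2 and 4 were the high libraries of SPI1. TFEC, a factor of the MITF family, differed by -0.95 ± 0.40 (edgeR adjusted p = 0.391). The ligand csf1a, named after its values were seen, did not follow them. It stood at 5.18, 3.66, 5.19 and 5.68 CPM in wild type 1 to 4. In actb1 sponge 1 to 4 it stood at 17.6, 12.4, 12.3 and 7.87 CPM. Such a separation, with the actb1 line higher, was found for 801 of 19645 tested genes. The lowest edgeR adjusted p of this list in the actb1 line was 0.152, so csf1a was not called.

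CTSB was set beside other lysosome genes. Of 36 tested, 28 were negative in the kif5a line, with a median of -0.19. In the actb1 line 23 were negative, with a median of -0.06. Of all tested genes, 51.1% and 53.9% were negative in these lines. EdgeR called 0. At an unadjusted p under 0.05, 4 were lower in the kif5a line and 0 higher. Over all tested genes, 6.78% were lower and 891 of 19645 higher there. In the actb1 line 0 were lower and 2 higher (8.85% and 7.8% of all tested genes). The palmitoyl-protein thioesterase gene PPT1 was at 87.8 to 105 CPM in wild type and 63.9 to 81.9 CPM in the kif5a line, a log2 difference of -0.44 ± 0.12 (edgeR adjusted p = 0.183). The protease gene CTSD differed by -0.21 ± 0.08 and the cholesterol carrier gene NPC2 by -0.40 ± 0.16 (edgeR adjusted p = 0.372 and 0.383). These lysosome genes varied little within wild type, with a median SD of 0.17 on the log2 scale, as did CTSB. The other complement genes were centred near 0 in the kif5a line (7 of 13 negative, median -0.03, 0 called by edgeR). At an unadjusted p under 0.05, 2 complement genes were lower and 1 higher. Over all tested genes, 6.78% were lower and 891 of 19645 higher. Among them c4 stood at 55.6, 160, 54.9 and 136 CPM in wild type 1 to 4, and c4b at 6.60, 54.5, 7.59 and 52.8 CPM. Wild type 2 and 4 were thus the high libraries of c4 and c4b, as of c1qa and c1qb. The top library was wild type 2 in c4 and c4b and wild type 4 in c1qa and c1qb. Of the 13 complement genes, 6 had wild type 2 and 4 above wild type 1 and 3, as did 19.1% of all tested genes.

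Several other lists of immune genes moved with the set in wild type. The lists were not separate, since some genes are in more than 1 of them. The abundant cd74a and cd74b were in both the interferon list and that of other microglia and macrophage genes. Of these, cd74a stood at 286, 1027, 370 and 856 CPM in wild type 1 to 4. Likeness between those sums is therefore partly built in. Lymphocyte genes summed to 74.5 to 337 CPM in wild type, 78.5 to 113 CPM in actb1 sponge and 84.4 to 118 CPM in kif5a sponge libraries, and wild type 2 and 4 were the high libraries in 14 of 20. None of the 23 lymphocyte identifiers was at 0 in all libraries. Their mean log2 CPM relative to wild type was -0.87, 1.501, -0.92 and 0.29 in wild type 1 to 4, so here wild type 2 was highest and not wild type 4. The immunoglobulin gene ighm stood at 3.09, 141, 3.97 and 5.30 CPM in wild type 1 to 4. Interferon and antigen presentation genes summed to 974 to 4168 CPM in wild type, 1148 to 2053 CPM in actb1 sponge and 897 to 1506 CPM in kif5a sponge libraries, with wild type 2 and 4 high in 23 of 26. The class I gene mhc1uba, of that list, was at 127, 9.82, 3.36 and 858 CPM in wild type 1 to 4. Neutrophil genes had that order in 5 of 9, summed to 49.4 to 90.0 CPM in wild type, 68.1 to 99.4 CPM in actb1 sponge and 56.1 to 75.8 CPM in kif5a sponge libraries, and included none at 0 in all libraries. Inflammation genes had it in 15 of 22, and 19.1% of all tested genes did. Genes of red blood cells, oligodendrocytes and neurons had it in 0 of 14, 0 of 10 and 0 of 22. For genes of radial glia and astroglia, meninges and fibroblasts, and vessels it was 1 of 18, 5 of 22 and 6 of 25. The order was not confined to immune lists, since immediate early genes had it in 9 of 18. Lysosome genes had it in 19 of 36. The lysosome list shares grna with that of other microglia and macrophage genes, and grna had this order. Photoreceptor genes had it in 1 of 20. The part of lymphocytes, neutrophils and the interferon genes in the values of the set was not tested.

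**Figure D5:**
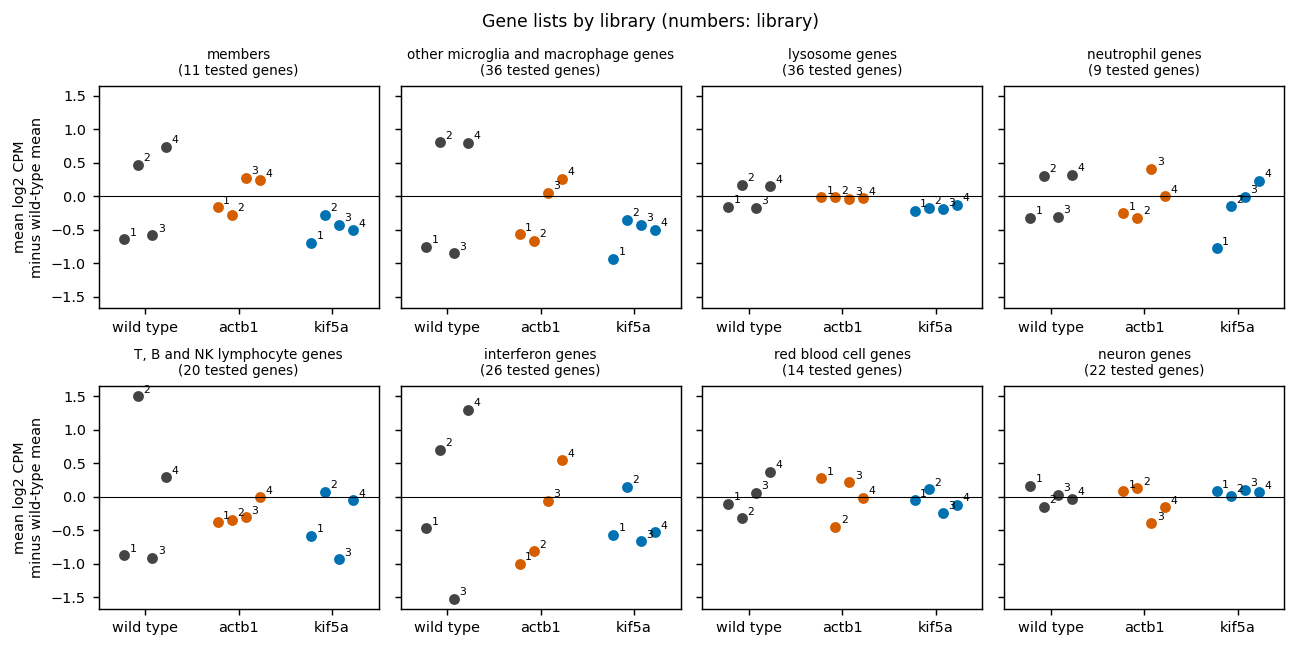
Mean log2 CPM of the tested genes of 8 lists in each library, minus the wild-type mean; points are libraries numbered within their group. Wild type 2 and 4 are above wild type 1 and 3 in the panels of the set, other microglia and macrophage, lysosome, neutrophil, lymphocyte and interferon genes, and not in those of red blood cell or neuron genes.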

How the data were processed

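For the 12 libraries the authors deposited a table of read counts, whole numbers per gene and the input of every test, and a table of RPKM values. Libraries were made with the TruSeq RNA kit, which does not mark strand, per the labels' protocols. Tools named in the submitters' processing notes are featureCounts 1.4.6-p4, STAR 2.4.1d and bcl2fastq 1.8.4, with genome GRCz10. No annotation release is given in the sources used here. The ratio of count to deposited RPKM within a gene varied by a median CV of 0.179 with each library's own total and 1.48e-05 with the totals recycled down the genes (6540 genes), so RPKM served only to derive gene lengths. Symbols were found for 26269 identifiers (81.8%). No replicate pair agreed within sampling noise, so no library counted as a duplicate.

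Genes above 0.5 CPM in at least 4 libraries (19645) entered 1 model of the 3 strain groups with TMM scaling in edgeR 4.0.16 (R 4.3.3), tested by quasi-likelihood with Benjamini-Hochberg adjustment over all genes and called at 0.05. CPM are TMM-normalised; log2 CPM used a prior count of 2; the standard error is the log2 fold change divided by the root of the F statistic. The test was checked on simulated counts, and the outcome of that check is not given here. Alternatives were DESeq2 1.42.0, its size factors, no filter, a robust prior, the compared groups alone and each library left out. The members and lists were chosen with earlier results of these data known. Named genes were all members, up to 3 genes of smallest p per list in the kif5a line, and any called gene of the lists. The 8 genes most like the members' mean were also named. The genes ctsbb, c1qc, csf1a, cd74a and grna were named outside this rule, with their values known. Of the lists, 1 gene was called, PDE6G of the photoreceptor list. Its log2 difference in the actb1 line was 3.90 ± 0.80 (edgeR adjusted p = 0.0488). Of the 20 tested genes of that list, 19 were positive in the actb1 line (median 3.86) and 18 in the kif5a line (median 3.16). Over all 19645 tested genes, 9050 and 9605 were positive. The list's mean log2 CPM relative to wild type was 3.93, 2.90, 3.98 and -0.44 in actb1 sponge 1 to 4. In kif5a sponge 1 to 4 it was -0.05, 3.46, 3.60 and 0.83. The part of this in the values of the set was not tested. A search for promoter motifs was planned and not run, since no sequence was used here. Replicate numbers follow accession order.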

Additional observations from a re-analysis of the deposited data

Results flagged for a closer look

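The 33 sets of 4 libraries examined were those of 11 genes in 3 groups. In 6 of them the highest library was separated from the next by more than 0.829 of the group's whole range. That bound is Dixon's critical value for 4 values. The CPM were not on a log scale, so how often chance alone passes the bound is not known here. The share of the range was 0.902 for apoeb in actb1 sponge 3, the library with the low mitochondrial share. It was 0.957 for c1qb and 0.887 for MPEG1 (ENSDARG00000043093), both in kif5a sponge 2. In wild type 4 it was 0.836 for P2RY12 and 0.853 for CTSB, and in actb1 sponge 2 it was 0.867 for P2RY12. The P2RY12 value of actb1 sponge 2 rests on 44 counts, with a 95% counting interval of 1.24 to 2.28 CPM that overlaps those of the other 3 libraries of its group.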

How the results depend on the processing

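With DESeq2's size factors, no filter, a robust prior or the compared groups alone, no difference of the 11 genes changed direction or its side of the threshold, and the spread within wild type held under plain library totals and a prior count of 0.5. The DESeq2 test called 1 gene in the actb1 line (CTSB) and 1 between the lines (apoeb), where edgeR called 0; over all genes it called 449 higher and 485 lower (actb1 line), 156 and 281 (kif5a line) and 455 and 495 (between the lines), against 55 and 90, 22 and 83, and 106 and 126 with edgeR. With the compared groups alone the actb1 line had 35 and 46. With 1 library left out, these counts ran from 20 to 94 and 32 to 156 (actb1 line), 5 to 26 and 30 to 70 (kif5a line) and 42 to 80 and 54 to 112 (between the lines). In the same fits the members called in the kif5a line numbered 0 to 1. Differences that changed sign with 1 library left out ranged, in the actb1 line, from -0.10 to 0.44 (MPEG1, ENSDARG00000043093), -0.46 to 0.41 (MPEG1, ENSDARG00000055290), -0.53 to 0.50 (P2RY12), -0.36 to 0.58 (c1qa) and -0.44 to 0.80 (c1qb). In the kif5a line they ranged from -0.76 to 0.42 (MPEG1, ENSDARG00000043093) and -0.76 to 0.25 (P2RY12), and between the lines from -0.82 to 0.19 (the same MPEG1), -0.25 to 0.013 (csf1rb) and -0.26 to 0.21 (SLC7A7). The median over the set ranged from -0.43 to 0.41, -0.76 to -0.33 and -0.73 to -0.39 in the 3 comparisons. The causes were not tested. No paired analysis was possible because the replicate numbers follow accession order and the labels pair no libraries. The promoter motif search was not run. With 4 libraries a group and wild-type ranges of 5-fold or more, a 2-fold difference of genes such as c1qa was not called; P2RY12 has 19 to 79 counts a library.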
